A study of Mus musculus with 6 samples.

Results

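Goblet cells with high Spink4 were taken from 2043 single epithelial cells of mouse jejunum as cells that held the goblet transcripts Muc2 and Fcgbp together with a high level of Spink4. For each gene a score was formed as the deposited log2 value minus that gene's 5th percentile among the cells of the same amplification pool. A member had a mean score of Muc2 and Fcgbp of at least 3.5, a Spink4 score of at least 5, and a mean score of Chga and Chgb, which mark hormone-secreting cells, below 3. The rule found 170 members. It left 633 other cells that passed its Muc2, Fcgbp, Chga and Chgb parts but not the Spink4 part, called other Muc2/Fcgbp cells below, and 1240 remaining cells, called all other cells.

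Goblet cells make the mucus that covers the intestinal epithelium. Muc2 is the gel-forming mucin of that layer, and it is folded and joined into polymers in the endoplasmic reticulum (ER), O-glycosylated in the Golgi and stored in granules. Fcgbp, Zg16, Clca1 and Tff3 encode proteins secreted with it, among them a lectin (Zg16), a protease (Clca1) and a trefoil peptide (Tff3). Spink4 encodes a secreted inhibitor of the Kazal type, a family that blocks serine proteases. In GRCm38 it lies on chromosome 4 at 40920052 to 40931395, and Muc2 and Fcgbp lie on chromosome 7 at 141690340 to 141754693 and 28071236 to 28120862. All 3 are protein-coding genes on the plus strand, counted here by gene.

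The series concerns ID2 in the differentiation of enteroendocrine cells, and the labels give no genotype. Jejunum of 3 mice, aged 120 days and of mixed CD-1:C57BL/6 background, was sampled at an anterior and a posterior site, the third and the 7th of 12 pieces of small intestine, so that the 6 samples form 2 groups of 3. Cells of villus and crypt were combined in equal numbers, sorted as EpCAM-positive and DAPI-negative, and read by MARS-seq, a plate method that tags each mRNA with a unique molecular identifier (UMI). The mixing and the sort set part of any share of cells given here. Levels are UMIs per 10000 UMIs of a cell (CP10K), averaged over the cells of a class in a sample, and UMIs are counts of 3′ ends, so levels do not depend on transcript length.

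Members were found in each of the 6 samples, and most came from mouse 1. Anterior samples held 68 of 568 cells (12.0%, Wilson 95% interval 9.55 to 14.9) in mouse 1, 8 of 198 (4.04%, 2.06 to 7.77) in mouse 2 and 9 of 262 (3.44%, 1.82 to 6.40) in mouse 3. Posterior samples held 58 of 511 (11.4%, 8.88 to 14.4), 14 of 280 (5.00%, 3.00 to 8.22) and 13 of 224 (5.80%, 3.42 to 9.67). Both samples of mouse 1 stood above the other 4, and mouse 1 gave 126 of the 170 members. The intervals cover counting error only.

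The share did not differ between the regions beyond the spread of the mice. It was 6.48% ± 4.76 (SD, n = 3) of all cells anteriorly and 7.38% ± 3.46 posteriorly, with a two-sided exact permutation p of 0.6, where the smallest p that 3 against 3 allows is 0.1. Among Muc2/Fcgbp cells the share was 17.8% ± 6.72 anteriorly and 23.2% ± 4.005 posteriorly (exact p = 0.3, and 0.6 for both shares after adjustment over the pair). Each share was higher anteriorly in 1 of 3 mice. Without anterior mouse 2, anterior mouse 3 or posterior mouse 1, the sign of the first difference turned, from -0.902 percentage points to 0.319, 0.621 and 1.08. With Muc2/Fcgbp cells as the denominator mouse 1 no longer stood apart: its samples gave 25.5% and 19.0%, against 13.04% to 26.9% in the other 4.

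**Figure D1:**
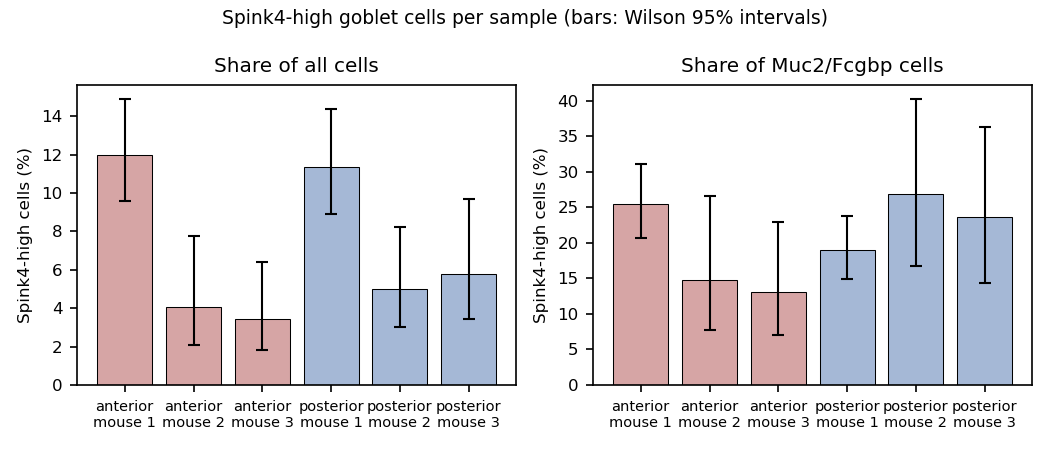
Share of Spink4-high goblet cells (percent, vertical axis) in each of the 6 samples, among all cells (left) and among Muc2/Fcgbp cells (right); bars give the share and whiskers its Wilson 95% interval. Both mouse 1 samples are highest on the left, at 12.0% and 11.4%, but not on the right.

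The genes of the rule are given as a description, since the rule chose the cells by them. The Spink4 level of members was 75.6 CP10K in the lowest sample, 124 at the median and 181 in the highest, against 4.22, 7.91 and 11.3 in other Muc2/Fcgbp cells and 1.45, 4.81 and 6.48 in all other cells. Muc2 did not separate the first 2 classes, at 314, 356 and 408 CP10K in members and 130, 216 and 510 in other Muc2/Fcgbp cells. Fcgbp overlapped in the same way, at 253, 375 and 563 against 161, 240 and 644 CP10K. Chga reached at most 0.552 CP10K and Chgb at most 1.60 in the members of any sample. The Spink4 threshold cut through a range: the nearest member had a score of 5.01 and the nearest cell outside 4.98, with 36 members and 47 outside cells within 0.5 of the limit. A Spink4 UMI was also found in 61.8% of other Muc2/Fcgbp cells and in 48.4% of all other cells, and in 46.9% and 18.02% after each cell was thinned to 1000 UMIs.

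Members held more UMIs than the cells they are compared with, which touches each result below. The median was 6266.5 UMIs per member (441 to 38156), 1675 per other Muc2/Fcgbp cell and 7137.5 per remaining cell. The sample medians of members, 3839 to 14626 UMIs, did not overlap those of other Muc2/Fcgbp cells, 1349.5 to 1914. Zg16, Tff3, Muc2, Fcgbp, Spink4 and Clca1 together took 31.4% to 55.1% of the UMIs of a member, sample by sample, and 12.2% to 26.9% in other Muc2/Fcgbp cells. CP10K is a share of these totals. The classes were therefore also compared with each log2 profile centred on its median gene, and among cells of at least 4000 UMIs (101 members and 75 other Muc2/Fcgbp cells). In the latter posterior mouse 3, with 2 other Muc2/Fcgbp cells of that depth, dropped out and 5 samples stayed. Depth was not matched there, since 75 of the 101 members but 24 of the 75 other Muc2/Fcgbp cells held 8000 UMIs or more. Both comparisons were added after the data had been seen.

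**Figure D2:**
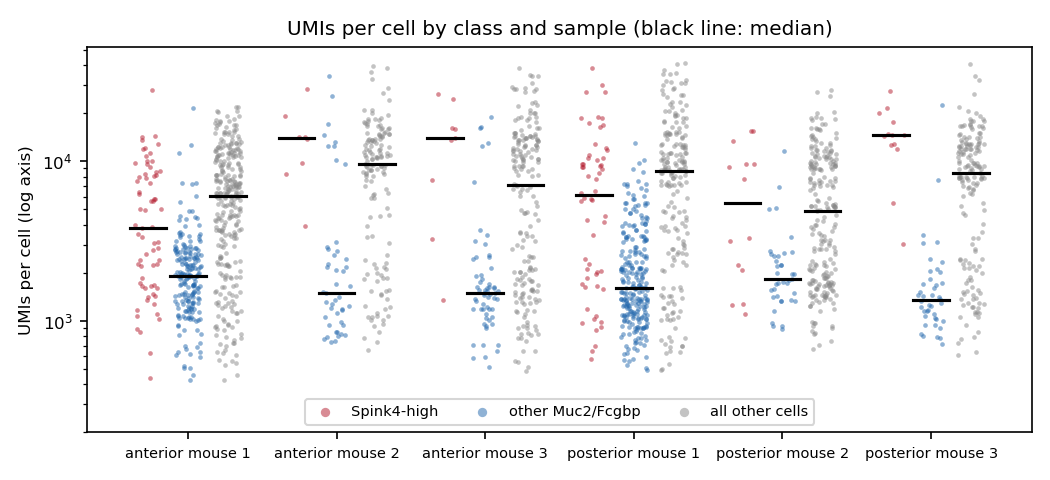
UMIs per cell (vertical log axis) in each sample for Spink4-high cells (red), other Muc2/Fcgbp cells (blue) and all other cells (grey), 1 point per cell with the median as a black line. In each sample the red median lies above the blue one.

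Against other Muc2/Fcgbp cells of the same sample, members were richer in a set of secreted goblet proteins and poorer in enterocyte transcripts. Of 4576 genes tested outside the rule with limma on log2(mean CP10K + 0.2), 79 (1.73%) were higher in members and 656 (14.3%) lower at an adjusted p below 0.05, with a median log2 difference of -0.50 over all genes. Centred on the median gene the split turned to 263 higher (5.75%) and 135 lower (2.95%), and 79 of the 79 and 135 of the 656 genes were among them. With totals taken without the 6 abundant genes it was 142 higher (2.84%) and 245 lower (4.9%) of 5002 genes. In cells of at least 4000 UMIs it was 10 higher (0.246%) and 6 lower (0.148%) of 4067 genes, of which 7 and 5 were shared. The median over all genes was then 0.12 and -0.11 (centred, and in the deeper cells). Centring adds 0.63 to the log2 difference of every gene, so a list is read below against the median and the share of all genes on the same scale. The ranges of the classes over the 6 samples did not overlap for 202 genes (4.41%). The genes were not used by the rule, but they were read in the same cells and scaled by totals that hold the rule genes. The 6 samples came from 3 mice, and the test treats their within-sample differences as independent. Without both samples of mouse 1 the counts were 39 and 447. Without posterior mouse 3 they were 30 and 260, without anterior mouse 3 43 and 300, without posterior mouse 1 49 higher, and without anterior mouse 2 398 lower.

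The goblet marker list, chosen from knowledge of these cells, moved mostly upward. Of its 21 measured members outside the rule, 12 rose and 1 fell in Spink4-high cells, against 1.73% and 14.3% of all genes. The median log2 difference was 1.23 against -0.50 over all genes. After centring 13 rose and 1 fell, against 5.75% and 2.95%. In cells of at least 4000 UMIs 3 of 21 rose and 0 fell by the limma test, against 0.246% and 0.148%. The median was then 1.07 (18 of 21 above 0) against -0.11 over all genes. The one that fell, Ern2, a sensor of ER stress found in goblet cells, differed by -2.04 ± 0.36 (log2 ± SE, adjusted p = 0.00252) over all cells and by -0.02 ± 0.63 in cells of at least 4000 UMIs (adjusted p = 0.992).

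Agr2, a protein disulfide isomerase of the ER that goblet cells need to make Muc2, had the clearest difference of the list. Its level was 31.2, 55.9 and 78.6 CP10K in members (lowest, median and highest sample) and 4.88, 5.24 and 13.4 in other Muc2/Fcgbp cells. The classes did not overlap, and the difference was 3.02 ± 0.27 (log2 ± SE, adjusted p = 1.68e-06). It held at 2.50 ± 0.51 (adjusted p = 0.0150) in cells of at least 4000 UMIs.

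Klk1, a kallikrein-type serine protease, stood at 8.40, 22.3 and 29.7 CP10K in members and at 1.08, 2.37 and 4.27 in other Muc2/Fcgbp cells, again without overlap. The log2 difference was 2.92 ± 0.32 (adjusted p = 2.55e-05), and 2.64 in cells of at least 4000 UMIs (adjusted p = 0.0196). Guca2a, the precursor of guanylin, a peptide that drives chloride and water secretion, stood at 41.9, 54.5 and 132 against 2.43, 14.4 and 32.7 CP10K. It differed by 2.38 ± 0.30 (adjusted p = 0.000129), and by 2.54 in the deeper cells (adjusted p = 0.00464). Fxyd3, a regulator of the sodium pump, was at 5.19, 7.55 and 12.9 against 0.290, 0.833 and 2.20 CP10K, a log2 difference of 2.87 ± 0.40 (adjusted p = 0.000407). These 3 genes were higher in members in 6 of 6 samples.

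The largest difference was that of Mptx1, a mucosal pentraxin, and it was uneven between samples. Its level was 2.25, 15.8 and 9.99 CP10K in the members of anterior mice 1, 2 and 3 and 8.03, 34.1 and 1.73 in those of the posterior samples. In other Muc2/Fcgbp cells the highest sample had 3.02 CP10K and the median was 0.221. The log2 difference was 3.84 ± 0.43 (adjusted p = 2.55e-05) over all cells and 4.98 ± 0.55 (adjusted p = 1.01e-06) in cells of at least 4000 UMIs.

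Ccl6, a chemokine, separated the classes over all cells but missed the threshold in the deeper ones. Members had 25.7, 38.3 and 53.4 CP10K and other Muc2/Fcgbp cells 2.70, 5.14 and 10.7, a difference of 2.82 ± 0.31 (adjusted p = 2.55e-05), which was 2.26 ± 0.55 (adjusted p = 0.0548) at 4000 UMIs or more. The abundant mucus genes also rose over all cells. Zg16 was at 997, 1541 and 2276 against 181, 459 and 713 CP10K (log2 1.95, adjusted p = 8.59e-06), Tff3 at 1202, 1737 and 2316 against 548, 834 and 1116 (1.08, adjusted p = 0.00304) and Clca1 at 45.8, 140.1 and 218 against 23.3, 31.8 and 86.0 (1.67, adjusted p = 0.000454). In cells of at least 4000 UMIs their log2 differences were 1.48, 1.03 and 1.57 and did not pass (adjusted p = 0.253, 0.421 and 0.276). Binned by depth, Zg16 stood at 387 CP10K in members and 306 in other Muc2/Fcgbp cells under 2000 UMIs, and at 2049 and 1991 CP10K at 8000 UMIs or more (75 and 24 cells). In that deepest bin Agr2 stood at 76.5 and 23.7 CP10K. Spink4 was at 171 and 12.97 CP10K there, a gap set by the rule, which parted the classes by this gene.

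**Figure D3:**
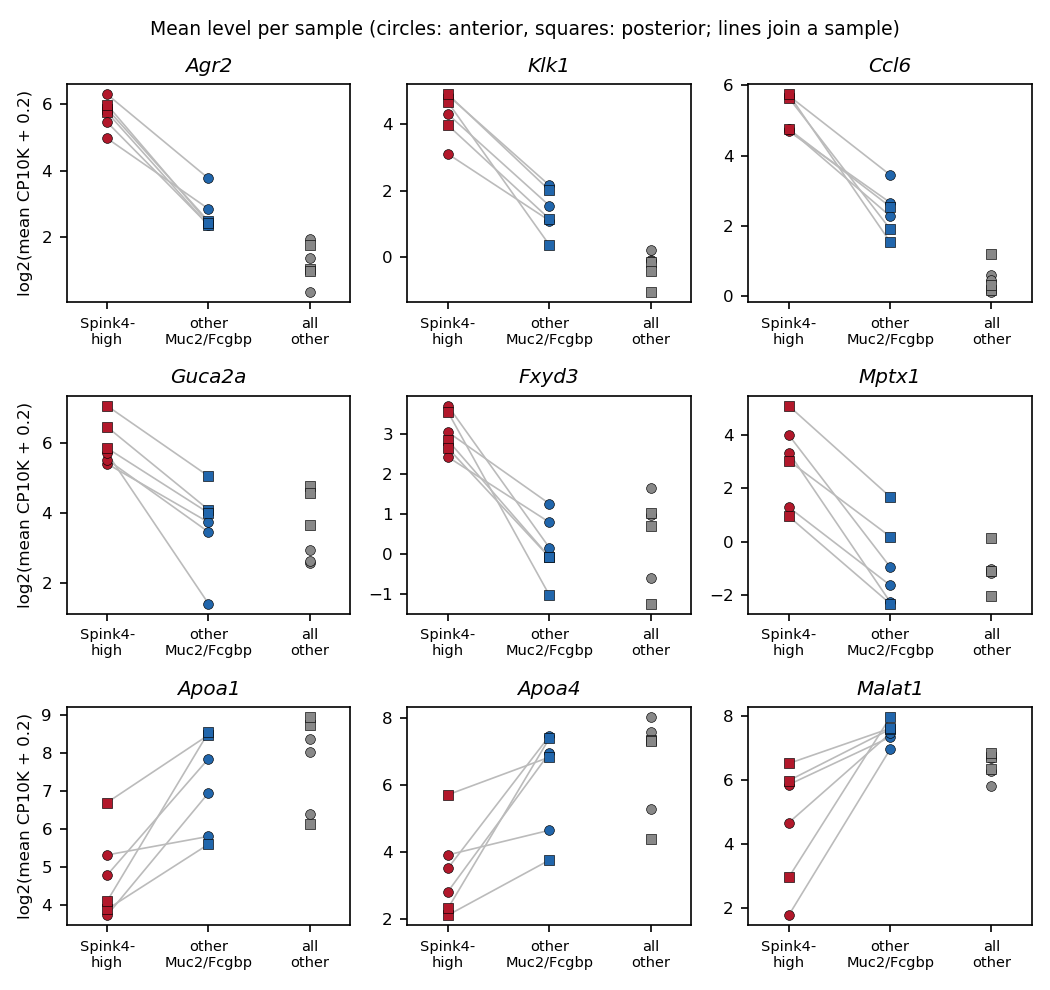
Mean level per sample, as log2(mean CP10K + 0.2) on the vertical axis, of 9 genes in Spink4-high cells, other Muc2/Fcgbp cells and all other cells; lines join the first 2 classes of a sample. Agr2, Klk1, Ccl6, Guca2a, Fxyd3 and Mptx1 fall along each line, whereas Apoa1, Apoa4 and Malat1 rise.

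Other genes among the 15 that rose most were Ly6e (log2 2.36, a membrane protein), Tspan1 (2.19, a tetraspanin), Tpsg1 (2.06, a tryptase), Manf (1.83, an ER stress-induced factor), Smim6 (1.80), Rep15 (1.78, an effector of the GTPase Rab15), Sec61b (1.77) and Scin (1.72, which severs actin filaments). All 8 were higher in members in 6 of 6 samples, and none of the 8 passed in cells of at least 4000 UMIs, where the log2 differences were between 1.38 (Manf) and 2.19 (Tpsg1).

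Genes of the secretory pathway rose in part. In the list of ER folding and disulfide formation, 5 of 39 tested genes rose and 1 (Ern2) fell, with a median log2 difference of 0.38. The 5 were Selenom (1.69), Manf (1.83), Pdia6 (1.70), Dnajc10 (1.71) and Selenok (1.21), of which Pdia6, a protein disulfide isomerase, also passed in the deeper cells (2.68, adjusted p = 0.0179). In the list of ER translocation and N-glycan transfer 4 of 35 rose and 0 fell, with a median of 0.49. They were Sec61b and Sec61g, subunits of the channel that admits new proteins to the ER (1.77 and 1.55), Krtcap2 (1.70) and Ssr4 (1.30). By the limma test in the deeper cells 1 of 39 and 0 of 35 passed upward and none downward, with medians of 0.71 and 0.91. Of 49 genes of ER to Golgi transport and exocytosis 3 rose (Rep15, Rab15 and Kdelr2) and 1 fell (Syt7), with a median of -0.10 against -0.50 over all genes. Of 37 genes of mucin O-glycan synthesis 1 rose (Gcnt3, 1.41) and 3 fell (St3gal4 at -1.99, Ugdh at -2.15 and B4galnt2 at -2.09). Over all genes 1.73% rose and 14.3% fell. The median of this list was 0.17 against -0.50 over all genes, with 22 of the 37 differences above 0. After centring 5 rose and 1 fell.

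Before centring, transcription factors of the secretory lineage gave counts near those of all genes. Of 18 tested 0 rose (1.73% of all genes) and 3 fell (14.3% of all genes) (Klf3, -2.25; Klf5, -2.37; Creb3l2, -1.72), with a median of -0.18 against -0.50 over all genes. After centring, which adds the same amount to each gene, 4 of 18 rose and 2 fell, against 5.75% and 2.95% of all genes. Both counts were then above the shares of all genes. Spdef, which drives goblet maturation, was at 2.71 CP10K in the median sample of members and 1.86 in that of other Muc2/Fcgbp cells, a log2 difference of 0.72 ± 0.50 (adjusted p = 0.338). Atoh1, which sets the secretory fate, was at 1.40 and 0.904 CP10K (1.02 ± 0.61, adjusted p = 0.259). Klf5 was at -0.06 in the deeper cells.

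Cytosolic ribosomal protein genes leaned the same way as the goblet genes. This list was chosen after the values had been seen, so its counts are a description. Of 79 genes tested 10 rose and 0 fell over all cells, against 1.73% and 14.3% of all genes. The median was 0.66 against -0.50 for all genes, and 73 of the 79 differences were above 0. After centring 57 rose, and in cells of at least 4000 UMIs 78 of 78 differences were above 0, with a median of 1.26, and Rpl3, Rpl12 and Rpl37 rose. Their summed level was 406 to 764 CP10K in the members of the 6 samples, 237 to 434 in other Muc2/Fcgbp cells and 515 to 1692 in all other cells. The sample medians were 547, 357 and 829.9 CP10K in that order, and the range of members overlapped both of the others.

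Most enterocyte genes were lower in members. Of 51 tested 38 fell, against 14.3% of all genes, and 2 rose (Guca2a and Gsta4), with a median log2 difference of -1.69, and after centring 18 fell and 2 rose with a median of -1.06. Their summed level was 158 to 539.9 CP10K in members, 309 to 1107 in other Muc2/Fcgbp cells and 502 to 1609 in all other cells. Apoa1, an apolipoprotein of chylomicrons and high-density lipoprotein, was at 13.2, 22.4 and 104 CP10K in members and 48.7, 178 and 376 in other Muc2/Fcgbp cells. The ranges overlapped, but within each of the 6 samples members were lower, by 2.45 ± 0.35 on the log2 scale (-2.45, adjusted p = 0.000454). Apoa4, an apolipoprotein of chylomicrons, was at 4.15, 9.08 and 52.0 against 13.3, 118 and 175 CP10K (-2.76 ± 0.44, adjusted p = 0.00111). Both passed in cells of at least 4000 UMIs (-2.55 and -2.63, adjusted p = 0.0150 and 0.0152). They were the only 2 of 52 enterocyte genes tested there that fell, and 1 rose, against 0.148% and 0.246% of all genes. The median of the 52 was -1.31 against -0.11 over all genes, with 3 differences above 0. Most of the calls over all cells were thus not kept in the deeper cells. An Apoa1 UMI was found in 95.9% of members, 94.8% of other Muc2/Fcgbp cells and 98.2% of all other cells, and the part of free RNA in these levels was not tested.

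The nuclear RNAs Malat1 and Neat1 were lower in members in 6 of 6 samples and followed depth as well. Malat1 was at 3.22, 41.2 and 90.6 CP10K in members and 123, 182 and 246 in other Muc2/Fcgbp cells (-2.85 ± 0.43, adjusted p = 0.000646), and Neat1 at 0.371, 2.19 and 12.0 against 16.2, 21.4 and 23.8 (-3.30 ± 0.47, adjusted p = 0.000454). Neither overlapped, and both passed in cells of at least 4000 UMIs (-2.28 and -2.51, adjusted p = 0.0254 and 0.0221). Within other Muc2/Fcgbp cells Malat1 was at 189.5 CP10K under 2000 UMIs and 32.8 at 8000 or more, and within members at 113 and 13.1. The part of depth in these differences was not tested beyond those bins.

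Several of the genes that fell most did not keep their difference in deep cells. Chd3, a chromatin remodeller, had the largest fall over all cells, at 0.0384, 0.101 and 0.342 CP10K in members and 1.22, 5.64 and 15.9 in other Muc2/Fcgbp cells (-3.93 ± 0.49, adjusted p = 0.000117). In cells of at least 4000 UMIs it was at 0.102 ± 0.0776 and 0.0766 ± 0.112 CP10K (SD, n = 5), below the minimum for a test. Pnisr and Ccnl2, nuclear proteins linked to splicing, went from -3.32 and -3.20 to -0.43 and -0.43. Lmo7 (-3.36), Creb3l3 (-3.30), Sbno2 (-3.19), Mylk (-3.14), Nos1ap (-3.12), Tnrc6a (-3.04), Khk (-2.94), Apob (-2.93), Ankrd11 (-2.92), Zc3h13 (-2.88) and Lipe (-2.88) complete the 15. The deeper cells are part of all cells, so the fits are not independent. Of 575 genes lower over all cells and tested in the deeper ones, 534 kept their sign, with a median of -0.90 in place of -1.74 over the same genes. Of 78 higher genes 78 did, with 1.36 in place of 1.48.

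**Figure D4:**
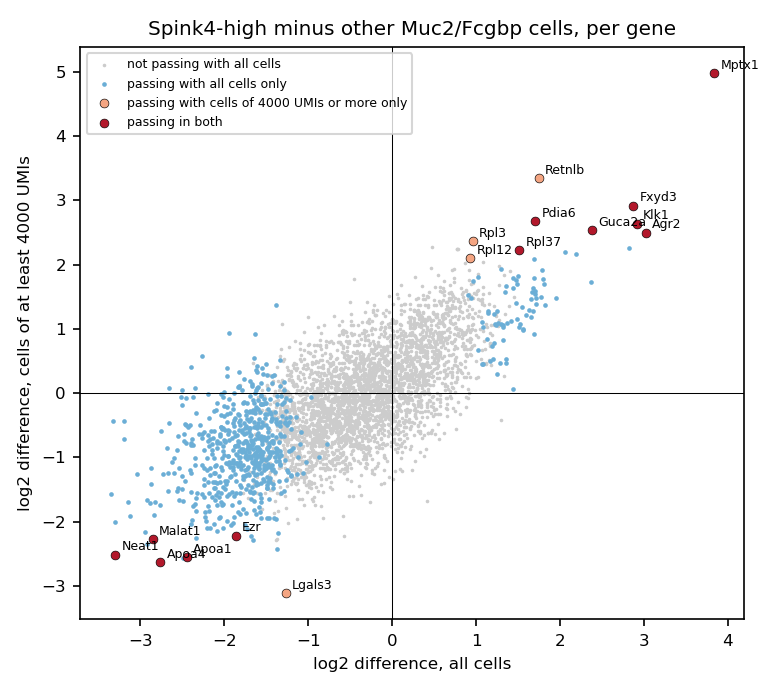
Log2 difference between Spink4-high and other Muc2/Fcgbp cells for each gene outside the rule, over all cells (horizontal) and in cells of at least 4000 UMIs (vertical), coloured by where it passed. The 12 genes passing in both are in red, 7 at the upper right and 5 at the lower left, and the pale blue genes at the left lie nearer 0 on the vertical axis.

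Genes of the upper villus divided. Of 23 tested 3 rose (Fxyd3, S100a6 and Tm4sf4) and 10 fell, against 1.73% and 14.3% of all genes. After centring 3 rose and 7 fell, against 5.75% and 2.95%. In cells of at least 4000 UMIs 1 of 23 rose and 4 fell, against 0.246% and 0.148%. Ezr, which links the brush border membrane to actin, fell over all cells and in the deeper ones (-1.86 and -2.22, adjusted p = 0.00815 and 0.0440). Lgals3, a galectin, fell in the deeper cells (-3.11, adjusted p = 0.00834) and was at -1.27 over all cells (adjusted p = 0.0533). Among antimicrobial and lectin genes 4 of 20 rose (Zg16, Lgals2, Lypd8 and Pglyrp1) and 6 fell, among them the lectins Reg3b (-1.66) and Reg3g (-1.39). The median of this list was -0.08 against -0.50 over all genes. After centring the split turned, with 8 of the 20 higher and 3 lower. Of the 8 protease inhibitor genes outside the rule 0 rose and 2 fell, Spink1 (-1.91) and Spint1 (-1.19), and neither passed after centring. Their median was -0.42 against -0.50 over all genes, and after centring 1 of the 8 rose and 0 fell.

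Markers of other cell types were present in members at low to moderate levels. Of 15 Paneth cell genes 1, Mptx1, rose and 0 fell. Their summed level was 79.1 to 289 CP10K in members, 38.1 to 233 in other Muc2/Fcgbp cells and 15.04 to 174 in all other cells. Defa24, an alpha-defensin whose near-identical family members may share its reads, was at 18.05, 104 and 152 CP10K in members against 14.9, 47.6 and 85.4 (0.83 ± 0.30, adjusted p = 0.0661). Lyz1, the lysozyme of Paneth cells, was at 5.27 and 7.95 CP10K in the median sample (-0.90 ± 0.36, adjusted p = 0.0935). Of 36 enteroendocrine genes outside the rule 4 were in both tables, and 1 of them fell (Gip). Of 36 tuft cell genes 8 were in both tables and 5 were tested, of which 1 fell (Adh1, also on the enterocyte list). Of 52 immune and stromal markers 2 were in both tables, with a summed level of at most 0.653 CP10K in members. The summed levels were 4.44 to 17.5 CP10K in members and 3.18 to 39.2 in other Muc2/Fcgbp cells for the enteroendocrine genes, and 18.5 to 51.5 and 14.7 to 61.3 for the tuft genes. Krt18, a gene of the tuft list, alone had a mean of 26.8 CP10K over the samples of members and 21.1 in all other cells. The tuft sum therefore rested largely on Krt18 and is no measure of tuft transcripts. Among defining markers Sh2d6 (tuft) reached at most 0.610 CP10K and Cd8a (T cells) at most 0.123 in the members of any sample. Cell cycle genes gave 0 higher and 0 lower of 18 by limma over all cells and after centring, and 0 and 0 of 13 in the deeper cells. That list held 66 genes, of which 23 were in both tables, and Mki67 and Stmn1 were not among these. Crypt base genes gave 0 higher and 2 lower of 14 (Dmbt1 and Clca3b), from a list of 37 with 16 in both tables. The crypt base median was -0.47 against -0.50 over all genes, and the share of these genes that fell was that of all genes, 14.3%. Of 6 genes of MHC class II presentation 2 fell (Cd74 and H2-Aa), and of 19 immediate early genes 2 fell (Jun and Fos), against 14.3% of all genes. The medians of these lists were -0.83 and -0.70 against -0.50 over all genes. After centring 1 gene fell in each list. The part of free RNA and of other cells in these levels was not tested.

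Members differed widely among themselves. Spink4 itself ranged from 19.9 to 847 CP10K per cell, with 38.4 at the 10th and 269 at the 90th percentile. Mptx1 had a UMI in 23.5% of members (16.5% after thinning to 1000 UMIs), with 8.89 CP10K at the 90th percentile and 389.5 in the highest cell. Its mean therefore rested on a minority of cells. The share was 6.79% in other Muc2/Fcgbp cells and 8.95% in all other cells (4.01% and 1.65% thinned). Retnlb, a secreted resistin-like protein of goblet cells, had a UMI in 40% of members (28.5% thinned) and lay mostly in mouse 1. Its level in members was 18.1, 1.67 and 0.0808 CP10K in anterior mice 1, 2 and 3 and 41.7, 0.509 and 0 in the posterior samples, where 0 UMIs of 190634 allow up to 0.157 per 10000. Retnlb was at 1.75 ± 0.59 over all cells (adjusted p = 0.0515) and rose by 3.35 ± 0.62 in cells of at least 4000 UMIs (adjusted p = 0.00725). The fit of these deeper cells left out posterior mouse 3, the sample whose members had 0 Retnlb UMIs.

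Among the 101 members of at least 4000 UMIs, Spink4 levels went with those of ribosomal protein genes. This is a description within cells that the rule had selected on Spink4, Muc2 and Fcgbp, so the values of these genes are cut off by the rule and support nothing. Correlations of log2 levels with Spink4, with each sample's mean removed, were taken across 101 cells for the 183 genes of at least 5 CP10K. For 59 ribosomal protein genes the median Pearson r was 0.60 (0.38 to 0.73), and for the 124 other genes 0.12. Rps12 came first at 0.73. Muc2 was at -0.55, S100a6 at -0.53, Fcgbp at -0.52 and Tff3 at -0.51, while total UMIs were at 0.07. For Muc2, Tff3 and Rps12 the sign was the same within each of the 6 samples. The points share libraries, and all levels share the total of the cell, of which the 6 abundant genes take a large part. With totals taken without those genes the ribosomal median was 0.43, and Muc2 and Tff3 were at -0.45 and -0.35. Rps12 was then at 0.57.

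**Figure D5:**
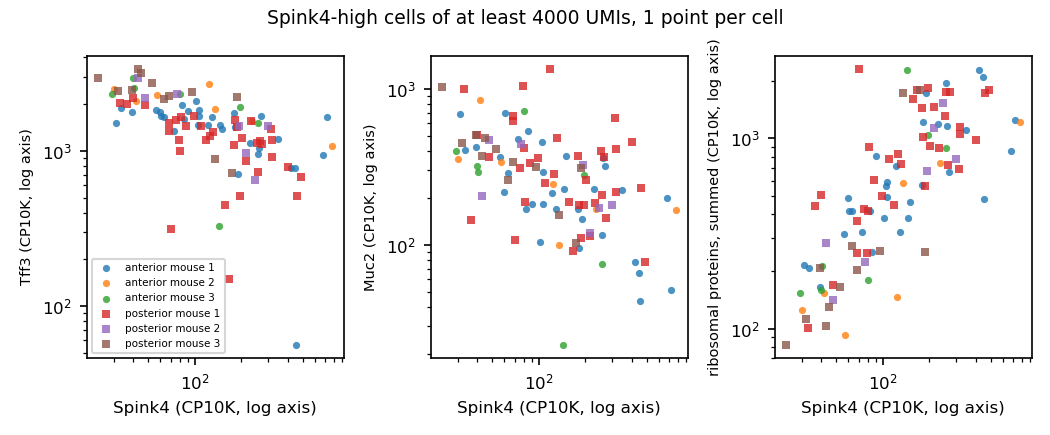
Tff3 (left), Muc2 (middle) and the summed ribosomal protein genes (right) against Spink4, in CP10K on log axes, for the 101 Spink4-high cells of at least 4000 UMIs, coloured by sample. Tff3 and Muc2 decline with Spink4 (r = -0.51 and -0.55 within samples), and the ribosomal sum, between 82.5 and 2308 CP10K, climbs (r = 0.77).

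Between anterior and posterior members 0 of 3963 genes passed in either direction by limma (0% of genes), with 124 genes at an unadjusted p below 0.05 and 0 passing with the mouse as a block. With UMIs summed over cells 2 genes passed as higher anteriorly and 1 as lower. Without anterior mouse 1 or posterior mouse 3, 1 gene passed as lower, and without posterior mouse 2, 1 as higher. The ranges of the regions did not overlap for 7.8% of genes. The goblet marker list had 0 of 21 passing, with a median of -0.29 (anterior minus posterior) against -0.05 over all genes.

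The genes of smallest p are given as not passing. Cd74, the invariant chain of MHC class II, was at 0.659, 0 and 0 CP10K in anterior mice 1, 2 and 3 and at 2.89, 7.80 and 2.86 in the posterior samples, with no overlap (-3.70 ± 0.73, adjusted p = 0.177). The anterior zeros, among 111379 and 122582 UMIs, allow up to 0.269 and 0.245 UMIs per 10000. H2-Ab1, a class II chain, was at 1.30, 0.712 and 0.0829 against 2.72, 10.9 and 1.53 (-2.39, adjusted p = 0.995). Of the genes of MHC class II presentation, 7 were measured in both regions. Of these, 4 were tested and 0 passed. Their median was -2.36 against -0.05 over all genes, with 1 of the 4 differences above 0. The ranges did not overlap for 3 of the 4, against 7.8% of all genes. Reg1, a secreted protein of the regenerating-islet family, was at 3.51, 6.42 and 3.42 anteriorly and 0.0195, 3.45 and 0.113 posteriorly (2.82 ± 0.81, adjusted p = 0.995), so posterior mouse 2 lay within the anterior range. The other 7 were Afdn (-2.87), Gpr107 (-2.60), Luzp1 (-2.45), Inpp5a (-2.46), Ankrd54 (-3.22), Dgka (-2.38) and Mgst2 (-1.85), each with an adjusted p of 0.995. The contrast between members and other Muc2/Fcgbp cells did not differ between the regions for any of 4576 genes by limma (0 passing, smallest adjusted p 0.947, 186 genes at an unadjusted p below 0.05).

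Set beside all other cells, which the rule kept apart by Muc2 and Fcgbp, members showed the goblet programme as a description with no test. The median log2 ratio over samples was 5.68 for Muc2, 5.31 for Tff3, 5.26 for Fcgbp, 5.12 for Zg16, 5.05 for Spink4 and 5.01 for Clca1. It was 4.96 for Ccl6, 4.88 for Agr2, 4.70 for Klk1 and 4.30 for Mptx1. Lrrc26, a subunit of a potassium channel (3.99), AW112010 (3.16), the calcium-binding S100a6 (3.09), Qsox1, an oxidase that forms disulfide bonds (2.96), and the membrane mucin Muc3a (2.81) complete the 15 largest. Lrrc26 and Muc3a set members apart less from other Muc2/Fcgbp cells, at 1.07 ± 0.32 (adjusted p = 0.0314) and -0.13 ± 0.39 (adjusted p = 0.844). Tff3 and Zg16 UMIs were also found in 99.3% and 98.3% of all other cells (82.5% and 83.1% thinned to 1000 UMIs), at median levels of 44.8 and 51.6 CP10K, so a UMI of either gene did not mark a goblet cell here.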

How the data were processed

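Single cells from anterior and posterior jejunum of 3 mice were measured by MARS-seq, and the labels' titles give mouse and region. The submitters' processing notes name STAR 2.6.1b, R 3.5.1, bcl2fastq, cutadapt 1.18 and UMI-tools 1.0.0, and the build GRCm38/mm10. The authors deposited log2 values in 1 table per region; their filters on cells and genes are not given in the sources used here. Tested on the values, each was log2(UMI/size factor + 1) minus, for each gene, a linear term in pool and 2 continuous covariates. Inverting this gave whole UMIs for 100% of values at a tolerance of 0.01 (6675215 anterior and 6573443 posterior), and the same on simulated tables. The number of columns mapped to no sample was 0, and 0 cell names occurred in both tables. Doublets were not called. The method sorts single cells into wells, and whether some wells held more was not tested.

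Computed here were CP10K over the 5674 genes in both tables and their means per class and sample for samples with at least 5 cells of a class. limma 3.58.1 (eBayes with trend) was run on log2(mean + 0.2) for genes of at least 0.2 CP10K, with Benjamini-Hochberg adjustment over all genes tested and a threshold of 0.05, and with the sample as a block for the contrast of classes. Fold changes on this scale understate changes of low genes. On simulated data for that contrast (4543 genes) 98% of genes raised 4-fold and 93% of those lowered 4-fold were recovered, with 4 false calls. The simulated cells had Poisson counts around a single profile per class and sample, without further variation between cells. These rates therefore do not measure recovery or false calls in the real cells. Anterior and posterior samples of the same number came from the same mouse; deviations from the region means, over members, correlated at 0.164, 0.00491 and 0.0434 within mice 1, 2 and 3. Shares were compared by exact permutation tests.

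Named genes were the rule genes, the 15 largest passing differences in each direction with the same sign in every sample and at least 1 CP10K in the higher class, the 10 of smallest p where fewer than 5 passed, up to 4 passing genes of each list and direction, and the 15 largest ratios to all other cells at 5 CP10K or more. Malat1, Retnlb, Lgals3, Spdef, Atoh1 and other genes given for depth or cell type were chosen with their values known. The members, lists and comparisons were chosen with earlier results of these data known. Gene positions are from GENCODE vM21. Alternatives covered the pseudocount, the minimum level, summed UMIs, thinning to 1000 UMIs, the minimum number of cells, the Spink4 threshold, uncorrected values, the block and each sample left out. Thinning left out 12 members and 109 other Muc2/Fcgbp cells.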

Additional observations from a re-analysis of the deposited data

How the results depend on the processing

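The difference in the share of members among all cells, -0.902 percentage points (anterior minus posterior), turned to 9.39e-05 with a Spink4 score of at least 4 and ranged from -3.65 to 1.08 when a sample was left out. The share among Muc2/Fcgbp cells, -5.40, ranged from -9.24 to -3.03. With the mouse as a replicate block, an exact sign-flip test gave p = 0.5 for both shares, where 0.25 is the smallest possible.

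The 79 genes higher in members became 207 with UMIs summed over cells, 35 with cells thinned to 1000 UMIs, 35 with a Spink4 score of at least 4 and 12 with at least 10 cells per class and sample. They ranged from 30 to 59 when a sample was left out. Among alternatives added after the data had been seen, the count was 263 centred on the median gene, 142 with totals without 6 abundant genes, 10 in cells of at least 4000 UMIs, 13 with both that depth and centring, and 39 without mouse 1. The 656 lower genes became 43, 160, 135, 245, 6 and 5 with at least 10 cells, a score of at least 4, centring, totals without the 6 genes, 4000 UMIs, and 4000 UMIs with centring, and ranged from 260 to 567 when a sample was left out. Without the replicate block the counts were 63 and 528, within 1.5 times the reported ones. For the changes not made by fewer cells or samples, the cause was not tested. Between regions, 2 genes passed as higher and 1 as lower with summed UMIs, and 0 to 1 in each direction when a sample was left out. The mouse block gave 0 in both directions, and the difference of the contrast between regions gave 0 in every alternative run.

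Of 1609 values for the 77 named passing genes under these alternatives, 1235 kept their call, 370 lost it and 4 turned. The 4 were Ern2 (0.0945), Fos (0.25) and Klf5 (0.0504) in cells of at least 4000 UMIs with centring, and Fos (0.13) without it. Among values that had not passed, Tubb4b turned to -0.80 with thinning, -0.0440 with a score of at least 6 and -0.11 at 4000 UMIs, and the regional difference of Inpp5a to 0.52. Few deep cells limit the contrast in cells of at least 4000 UMIs, since 75 other Muc2/Fcgbp cells reached that depth, and members of single samples numbered 8 to 68. Depth was not matched between the classes in that contrast.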

Other observations

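Id2, the gene named in the title of the series, was low in members, as in the other classes. Its level was 0.0659, 0.376 and 0.878 CP10K in the lowest, median and highest sample of Spink4-high cells, 0.256, 0.981 and 1.75 in other Muc2/Fcgbp cells and 0.0775, 0.878 and 1.58 in all other cells. Members were lower than other Muc2/Fcgbp cells in 5 of 6 samples, and the log2 difference of -0.98 ± 0.48 did not pass in limma (adjusted p = 0.161). The median over all genes on that scale was -0.50.

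Galectin-2 (Lgals2), a lectin, was abundant and even in members, at 100.1 CP10K in the lowest sample and 147 in the highest, against 25.2 to 56.0 in other Muc2/Fcgbp cells and 30.7 to 69.5 in all other cells. It rose by 1.59 ± 0.23 against other Muc2/Fcgbp cells (log2 ± SE, adjusted p = 0.000454) and was at 1.22 in cells of at least 4000 UMIs (adjusted p = 0.230).

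The wells carry a label, pos or neg, whose meaning no source used here states. Members made up 3.64% to 13.3% of pos cells and 1.60% to 11.7% of neg cells over the 6 samples. Within anterior mouse 1 the share differed between amplification pools, from 6.94% (12 of 173 cells) to 20.4% (28 of 137 cells).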
